A study of Mus musculus with 4 samples.

Results

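The 8 genes described here encode inhibitory receptors of immune cells and the phosphatases that such receptors recruit, out of 20637 named genes on a mouse expression array. The receptors are Fcgr2b, Pirb, Siglece, Lair1 and Clec12a, and the phosphatases are Ptpn6 (SHP-1), Ptpn11 (SHP-2) and Inpp5d (SHIP1). They were chosen by name as partners, or relatives in function, of the receptor CD300a, and were found through the RefSeq accessions that the array files give for their probes. All 8 had a probe, and Lair1 had 2, so that 9 of the 27191 named probes belong to them. The cells were dendritic cells sorted by flow cytometry from the lamina propria of the colon, the connective tissue under the gut epithelium, of C57BL/6J mice. Mice without CD300a (KO) and wild-type mice (WT) were raised germ-free (GF), that is without microbes, or specific pathogen-free (SPF). The 4 groups were KO GF (labelled male), WT GF (labelled male), KO SPF (labelled female) and WT SPF (labelled female), with cells of 5 mice per condition and 1 array per group. The sources used here do not give the KO allele, the ages of the mice or the gates of the sort.

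Many inhibitory receptors carry an immunoreceptor tyrosine-based inhibitory motif (ITIM) in their cytoplasmic tail. When the receptor binds its ligand next to an activating receptor, Src family kinases phosphorylate the ITIM tyrosine, and the phosphorylated motif docks phosphatases with SH2 domains. SHP-1 and SHP-2 remove phosphate from tyrosines of signalling proteins, and SHIP1 removes a phosphate from a membrane lipid that activated receptors produce. CD300a is such a receptor: it binds phosphatidylserine exposed on dying cells and recruits SHP-1 and SHP-2.

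Levels are given as log2 of the processed signal relative to the 75th percentile of all probes on the same array, so that 0 is that percentile and a difference of 1 is a 2-fold difference. They depend on the probe as well as on the transcript, and levels of different probes are not set against each other. With 1 array per group no difference has a replicate check or an error, and no p-value is given for a pair of arrays. The KO SPF and WT SPF arrays lay on slide 1 and the KO GF and WT GF arrays on slide 2, so each genotype pair shares a slide, while slide, scan and labelled sex all change together with housing and cannot be told apart from it. No spot was saturated, and 13834 to 15084 genes were well above background per array. The KO GF array went against its label: Xist, the RNA of the inactive X chromosome of female cells, had a level of 3.62 on it but was below background on WT GF, while 4 of 4 Y-linked genes measured were detected on both GF arrays. Of the 4, Eif2s3y was also above background on KO SPF, labelled female, at a level of -2.56. The KO GF array enters the GF genotype pair and the KO housing pair. The SPF genotype pair and the WT housing pair do not hold it and are given beside them throughout.

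Cd300a itself, the targeted gene, had levels of 8.05 on the KO GF array, 7.60 on WT GF, 7.91 on KO SPF and 7.88 on WT SPF. The arrays of the KO cells were thus not lower, with differences KO minus WT of 0.45 in GF and 0.03 in SPF housing, the SPF one -0.08 with cyclic loess scaling. The position of the probe relative to the deletion is unknown, so it checks neither the deletion nor the labels.

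Ptpn6, which encodes SHP-1, the phosphatase most often recruited by ITIMs in blood cells, was lower in KO cells of both housings. Its level was 2.45 on the KO GF array, against 3.64 on WT GF, and 2.79 on the KO SPF array, against 3.74 on WT SPF. Both KO arrays lay below both WT arrays. The signal was 2.28-fold lower in KO GF and 1.94-fold lower in KO SPF cells, log2 differences of -1.19 and -0.95. Between housings the difference was smaller, at -0.10 in WT and -0.34 in KO cells (GF minus SPF).

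Fcgr2b, the inhibitory Fc receptor for IgG in immune complexes, signals mainly through SHIP1 and was likewise lower on both KO arrays. It had a level of 2.74 on the KO GF array, against 3.84 on WT GF, and 2.95 on the KO SPF array, against 3.68 on WT SPF. Again both KO arrays lay below both WT arrays, and the signal was 2.15-fold lower in KO GF and 1.65-fold lower in KO SPF cells. Its probe is printed 10 times on each array, which gives a measure of the spot-to-spot error. The 10 spots spanned 2.56 to 2.82 on KO GF (SD 0.07), 3.75 to 3.93 on WT GF (SD 0.05), 2.88 to 3.04 on KO SPF (SD 0.05) and 3.64 to 3.72 on WT SPF (SD 0.03). No spot of a KO array reached the lowest spot of the WT array of the same housing. These spots share 1 RNA sample and 1 hybridisation per group, so their spread covers neither mice nor amplification.

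**Figure D1:**
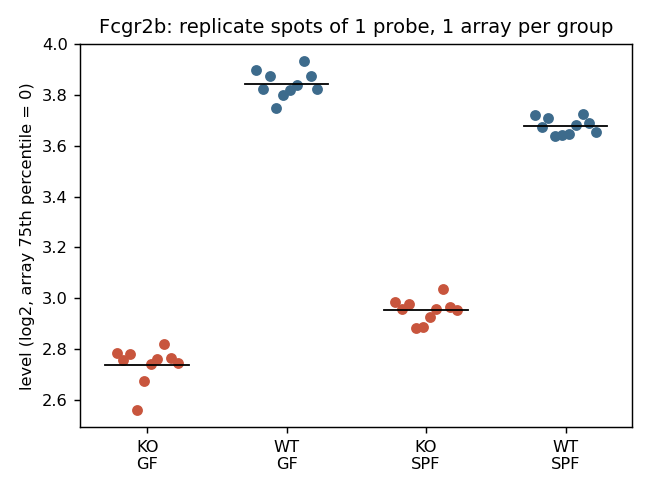
Level of each of the 10 Fcgr2b spots (log2, relative to the 75th percentile of its array) on the KO GF, WT GF, KO SPF and WT SPF arrays, with 1 point per spot and horizontal lines at the means. The spots of each KO array lie below all spots of the WT array of the same housing, for example 2.56 to 2.82 on KO GF and 3.75 to 3.93 on WT GF.

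Pirb encodes paired immunoglobulin-like receptor B, which binds major histocompatibility complex (MHC) class I molecules and recruits SHP-1. Its level was 1.23 on the KO GF array, against 1.92 on WT GF, and 1.92 on the KO SPF array, against 2.97 on WT SPF. WT SPF was the highest array and KO GF the lowest, with the other two at the same level. The signal was 1.61-fold lower in KO GF and 2.07-fold lower in KO SPF cells. The probe sequence is not in the files, and the related activating Pira genes are close in sequence to Pirb, so part of this signal may belong to Pira transcripts.

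Siglece, a receptor for sialic acid, had levels of 2.90 on KO GF, 3.27 on WT GF, 3.26 on KO SPF and 3.79 on WT SPF. Each KO array lay below the WT array of its housing, but KO SPF and WT GF were level with each other. The differences KO minus WT were -0.37 in GF and -0.52 in SPF housing, and the GF one came to 0.00 with cyclic loess scaling.

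Lair1 binds collagens and was mainly lower in GF housing by its brighter probe, with levels of 3.31 on KO GF, 3.73 on WT GF, 4.69 on KO SPF and 5.16 on WT SPF. Both GF arrays lay below both SPF arrays, with GF minus SPF at -1.42 in WT and -1.38 in KO cells. Its second probe, annotated to another transcript of the gene, read -0.74 on KO GF, -0.34 on WT GF, -0.97 on KO SPF and -0.86 on WT SPF, and there the GF arrays were the higher ones, by 0.52 in WT and 0.23 in KO cells. The direction of the housing difference of Lair1 therefore depends on the probe. Both probes were lower in KO cells: KO minus WT was -0.42 in GF and -0.47 in SPF housing by the brighter and -0.40 and -0.10 by the second. The GF value of the brighter probe came to -0.03 with cyclic loess scaling. The SPF value of the second lay near the median of all genes, -0.06.

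Inpp5d, the SHIP1 gene, was also lower in GF housing. It had levels of 0.22 on KO GF, 0.84 on WT GF, 1.90 on KO SPF and 1.89 on WT SPF. Again both GF arrays lay below both SPF arrays, with GF minus SPF at -1.05 in WT and -1.67 in KO cells. Between genotypes the SPF arrays differed by 0.01 and the GF arrays by -0.62 (KO minus WT).

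Ptpn11, which encodes the widely expressed phosphatase SHP-2, varied least of the 7 genes measured on all arrays. Its levels were 2.63 on KO GF, 2.75 on WT GF, 2.79 on KO SPF and 2.82 on WT SPF, a range of 0.19. Its GF genotype difference was -0.12 and came to 0.23 with cyclic loess scaling, so no direction is given for it. Clec12a, a C-type lectin receptor that senses dying cells, was well above background only on the WT SPF array, at -3.35, and was not well above background on KO GF (-5.99), WT GF (-6.02) or KO SPF (-5.63). Its bounds were set against the lowest level of any probe well above background on the dimmer array. By these its signal was at least 1.43-fold lower in KO SPF and at least 1.53-fold lower in WT GF than in WT SPF cells. Some genes above that lowest level were not well above background, for example Gata3 at -3.56 on KO SPF, where that lowest level was -3.86. These bounds and those below are therefore approximate. With normexp the log2 differences of Clec12a were -0.25 and -0.42.

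**Figure D2:**
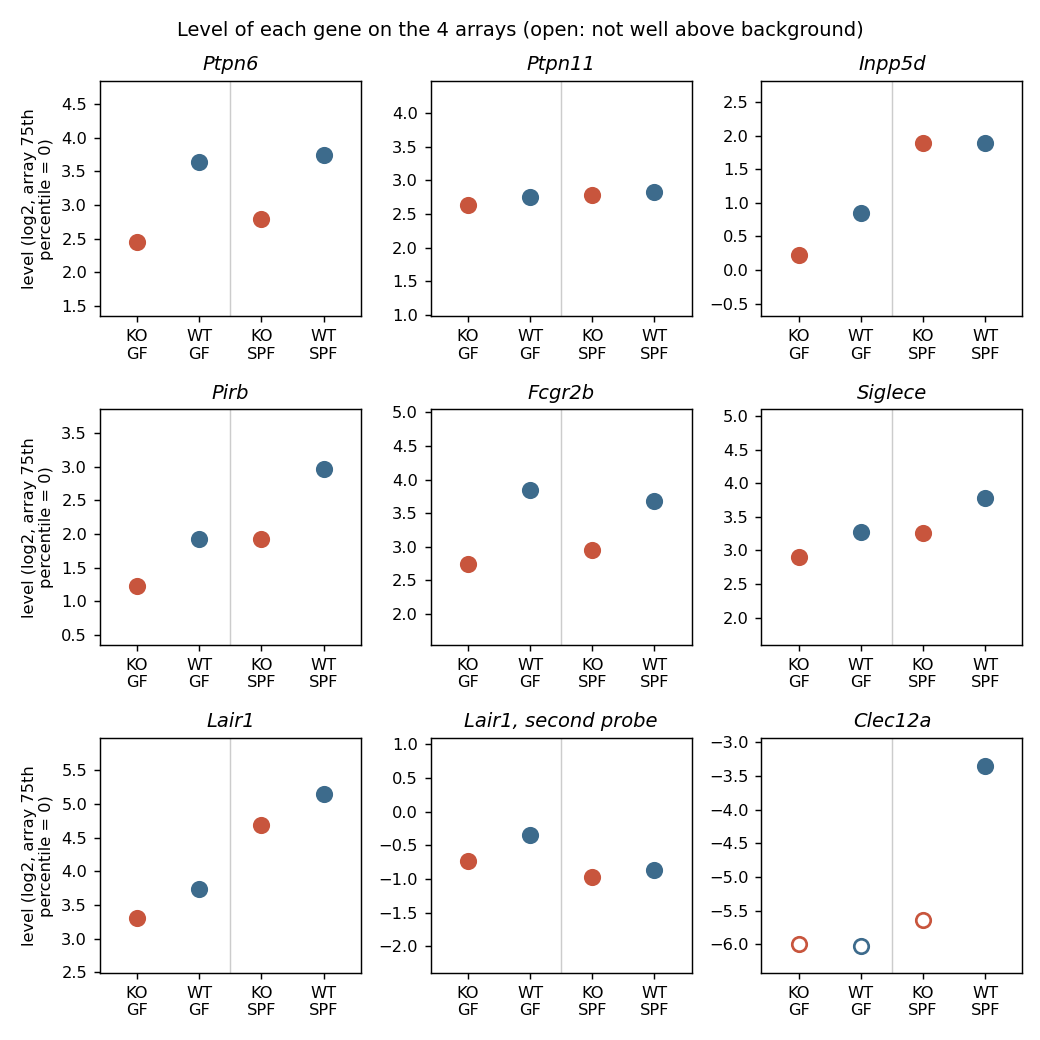
Level of each gene (log2, relative to the 75th percentile of the array) on the KO GF, WT GF, KO SPF and WT SPF arrays, 1 panel per probe, with the second Lair1 probe in its own panel; red marks KO, blue WT, and open circles are not well above background. All panels span the same log2 range around different centres: KO lies below WT in both housings for Ptpn6, Fcgr2b and Pirb, GF lies below SPF for Inpp5d and the brighter Lair1 probe, and Ptpn11 is nearly flat.

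The 250 bases upstream of the annotated start of Ptpn6 (chr6:124738710-124738959), Fcgr2b (chr1:170976072-170976321) and Pirb (chr7:3720383-3720632), all on the minus strand, are shown because the KO minus WT difference of these 3 genes was at most -0.5 in both housings. Sequences and coordinates are from the RefSeq promoter table of GRCm38.p6, written 5′ to 3′ on the strand of the gene. Capitals mark GGAAGT on either strand (ACTTCC where it lies on the opposite strand), a word that holds the GGAA core bound by ETS family factors such as PU.1, the myeloid regulator. The word was picked after the sequences had been seen.
Ptpn6: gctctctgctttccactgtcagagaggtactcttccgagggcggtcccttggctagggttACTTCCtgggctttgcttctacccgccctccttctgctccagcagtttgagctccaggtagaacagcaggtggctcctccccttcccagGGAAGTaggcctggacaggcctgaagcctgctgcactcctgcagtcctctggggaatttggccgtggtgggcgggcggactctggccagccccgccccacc
Fcgr2b: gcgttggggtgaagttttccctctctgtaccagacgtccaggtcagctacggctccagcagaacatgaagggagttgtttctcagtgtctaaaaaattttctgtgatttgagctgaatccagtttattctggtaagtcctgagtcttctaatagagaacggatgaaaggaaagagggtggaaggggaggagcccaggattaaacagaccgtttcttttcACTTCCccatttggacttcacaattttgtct
Pirb: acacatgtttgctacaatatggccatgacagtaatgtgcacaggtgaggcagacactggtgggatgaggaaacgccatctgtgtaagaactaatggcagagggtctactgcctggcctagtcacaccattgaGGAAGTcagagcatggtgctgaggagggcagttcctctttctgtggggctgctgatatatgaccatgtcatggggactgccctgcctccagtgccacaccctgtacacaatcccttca
The word stands at -101 to -96 and, on the opposite strand, at -190 to -185 of Ptpn6, at -31 to -26 of Fcgr2b on the opposite strand, and at -118 to -113 of Pirb, counted from the annotated start. Among all 8 genes 4 promoters held it, these 3 and Inpp5d at -18 to -13, and 19.74% of the 32851 promoters in the table held it in the same window. The longer word GAGGAAGT, which contains GGAAGT, was present in 2 of the 8, Pirb and Inpp5d, and in 2.44% of all promoters. Since the first word was picked after the sequences had been seen and the longer one extends it, neither count tests for enrichment. These matches describe letters only and carry no information on binding in these cells.

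Read against all genes, the differences between KO and WT cells were more negative for Ptpn6, Fcgr2b and Pirb than for most bright genes. In SPF housing Pirb was at least 2-fold lower. With Clec12a, which enters by its measured value only (its bound is 1.43-fold), that is 2 of 8 genes, beside 6.61% of the 14877 genes above background on either array, and without it 1 of the 7 genes above background on all arrays, beside 2.58% of 12884 such genes. None of the 8 was 2-fold higher, beside 5.61% of all genes. In GF housing Ptpn6 and Fcgr2b were at least 2-fold lower, 2 of 7 genes, beside 7.77% of 15697 genes, and none was 2-fold higher, beside 8.8%. That count of 2 was 0 relative to the median of all genes. It was also 0 with quantile (beside 8.72% of all genes), cyclic loess (7.05%), the 75th percentile over detected probes (4.47%) and the deposited table (3.64%). The share of 2-fold differences depends on brightness, and among the brightest quartile of genes 0.699% in SPF and 8.36% in GF housing were 2-fold lower. Differences spread less among bright genes: the 5th to 95th percentile ran from -0.60 to 0.77 in the brightest quartile and from -1.17 to 1.07 over all genes in SPF housing. That quartile holds 6 of the 8 genes, all but Inpp5d and Clec12a. In SPF housing Pirb lay at the 0.6 percentile of that quartile, Ptpn6 at 0.9, Fcgr2b at 2.8, Siglece at 7.0, Lair1 at 8.8 and Ptpn11 at 46.0, where a low percentile means a more negative difference. In GF housing Ptpn6 lay at 3.6 and Fcgr2b at 5.3, but Pirb at 28.6, Lair1 at 52.4, Siglece at 56.6 and Ptpn11 at 72.6.

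The bright genes of the GF pair were shifted downward. The median difference KO minus WT was -0.20 over all genes and -0.45 over the brightest quartile in GF housing, and -0.06 and 0.00 in SPF housing. The upper tail over all genes did not fall, with a 95th percentile of 1.30 in GF and 1.07 in SPF housing. The GF median over all genes was 0.00 with the 75th percentile over detected probes and 0.08 with the deposited table. The median of the 8 genes was -0.62 in SPF housing, with Clec12a entered by its measured value. Over the 7 genes above background on all arrays it was -0.62 in GF and -0.52, the value of Siglece, in SPF housing. The GF differences of Lair1 (-0.42) and Siglece (-0.37) were thus near that of a typical bright gene of the pair. Relative to the median of all genes, the GF difference was -0.99 for Ptpn6. Of the 7 genes measured on all arrays, 6 had differences below 0 in both housings, beside 36.0% of all genes, though the GF values of Ptpn11 and Siglece came to 0 or above with cyclic loess. Of the 7, 3, Ptpn6, Fcgr2b and Pirb, were at most -0.5 in both, beside 5.24% of all genes and 4.22% of the brightest quartile. For these 3 the difference stayed below 0 in every scaling and filter tried. It ranged from -1.03 to -0.89 in SPF and -1.19 to -0.82 in GF housing for Ptpn6, from -0.82 to -0.66 and -1.10 to -0.73 for Fcgr2b, and from -1.13 to -0.97 and -0.69 to -0.39 for Pirb.

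A linear model over the 4 arrays with genotype and housing (limma) gave no call for genotype among the 7 genes tested, beside 0.133% of 15029 genes, 10 higher and 10 lower, at an adjusted p under 0.05, with 954 genes at an unadjusted p under 0.05. In this fit the KO minus WT difference was -1.07 (SE 0.39) for Ptpn6, with an unadjusted p of 0.0184 and an adjusted p of 0.576 by Benjamini-Hochberg over all genes. For Fcgr2b it was -0.91 (SE 0.39, limma adjusted p = 0.73) and for Pirb -0.87 (SE 0.39, limma adjusted p = 0.77), while the remaining 4 had adjusted p-values of 0.933 to 0.975. The single residual degree of freedom of this fit is the difference between the genotype effects of both housings, so its SE and p measure no spread between samples of a group.

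**Figure D3:**
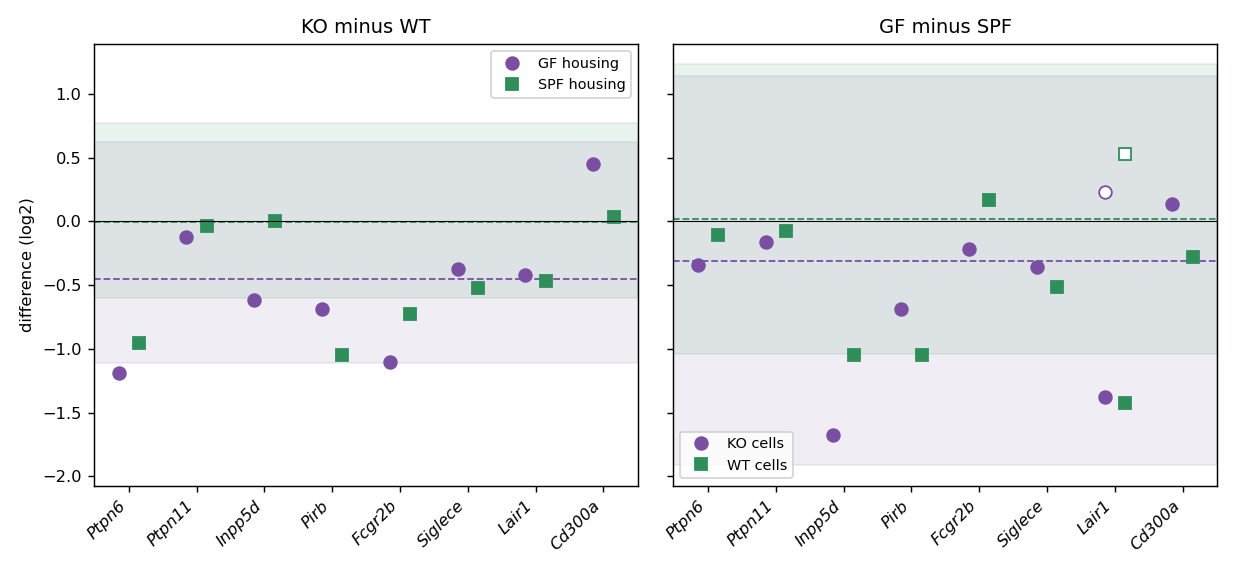
Difference of each gene for 4 pairs of arrays (log2), KO minus WT in GF and SPF housing and GF minus SPF in KO and WT cells; the bands of the same colours run from the 5th to the 95th percentile of the brightest quartile of genes, dashed lines are its medians, and open symbols in the housing panel are the second Lair1 probe. Cd300a is included and Clec12a is left out as below background. Ptpn6, Fcgr2b and Pirb lie below the band in SPF housing and Ptpn6 in GF housing, where the whole band sits lower with a median of -0.45.

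Between housings, the GF arrays were lower for Inpp5d, Pirb and the brighter Lair1 probe. In WT cells Inpp5d, Pirb and Lair1 were at least 2-fold lower in GF housing, 3 of the 7 genes above background on all arrays, beside 6.78% of 12884 such genes. With Clec12a, which enters by its measured value only (its bound is 1.53-fold), that is 4 of 8 genes, beside 9.44% of 15656 genes and 5.47% of the brightest quartile. In KO cells Inpp5d and Lair1 were, 2 of 7 genes, beside 15.4% of 15572 genes and 20.9% of the brightest quartile. Inpp5d and Lair1 were at most -1 in both genotypes, 2 of the 7 genes measured on all arrays, beside 4.76% of all genes and 4.55% of the brightest quartile. With Pirb, 3 of the 7 were at most -0.5 in both, beside 13.6% and 15.9%, and 6 of the 7 lay below 0 in both, beside 32.2% of all genes. Of these 6, Ptpn6, Ptpn11 and Siglece came to 0 or above in KO cells with at least 1 other scaling. No gene of the 8 was 2-fold higher in GF housing, beside 17.5% of all genes in WT and 21.6% in KO cells. Pirb was lower, at -1.05 in WT and -0.69 in KO cells, and Siglece at -0.51 and -0.36. Fcgr2b was at 0.16 in WT and -0.21 in KO cells, the KO value 0.15 with cyclic loess. The median over all genes was 0.13 in WT and 0.05 in KO cells, and over the brightest quartile 0.02 in WT and -0.31 in KO cells. In KO cells Siglece and Ptpn6 lay near the middle of that quartile, at its 47.2 and 48.2 percentiles.

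The limma fit for housing called 2 of the 7 genes tested, beside 5.2% of 15029 genes called lower and 11.4% called higher. These were Lair1 (GF minus SPF -1.40, SE 0.39, limma adjusted p = 0.0296) and Inpp5d (-1.36, SE 0.40, limma adjusted p = 0.0376). Both calls were lost with quantile scaling, at limma adjusted p-values of 0.0692 for Lair1 and 0.0573 for Inpp5d, and the second Lair1 probe ran the other way.

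Markers of other cell types moved with housing. By measured value all 10 epithelial markers were at least 2-fold higher on GF arrays, beside 17.5% of all genes in WT and 21.6% in KO cells. Of these, Cdx2, not well above background on WT SPF, has a bound of only at least 1.65-fold higher on WT GF. The median level of the 10 epithelial markers was 3.26 on KO GF, 2.65 on WT GF, -2.16 on KO SPF and -2.13 on WT SPF. Their summed signal was 323.2, 193.4, 3.79 and 3.11 times the 75th percentile in the same order. Ptprc, the pan-leukocyte surface phosphatase CD45, was at 0.52 on KO GF, 1.37 on WT GF, 2.44 on KO SPF and 2.49 on WT SPF, with GF minus SPF at -1.12 in WT and -1.92 in KO cells. Of the 8 genes, Inpp5d was at -1.05 and -1.67, but Ptpn6 at -0.10 and -0.34 and Fcgr2b at 0.16 and -0.21. The adaptor Tyrobp was at 0.62 and -0.20, and Fcer1g, a signalling chain of Fc receptors, at -0.21 and -0.58. Genes of leukocytes thus did not share 1 housing difference. Neutrophil and eosinophil markers were lower in GF housing, with a median of -2.33 in WT and -2.69 in KO cells. By measured value 7 of 8 and 8 of 9 were at least 2-fold lower, beside 9.44% and 15.4% of all genes. B cell and plasma cell markers had medians of -1.90 and -2.62. Of these, 4 of 7 and 5 of 8 were at least 2-fold lower, while Pax5 was higher in both. The dendritic cell list had medians of -0.30 and -1.12. In RNA of whole sorted samples, fewer cells of a type and less RNA per cell cannot be told apart, and the part of these markers in the differences above was not tested. Dendritic cell markers were present: 14 of 15 measured were above background on both GF arrays and 15 on both SPF arrays, with Xcr1 missing in GF.

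Markers also moved with genotype. The dendritic cell list had a median difference KO minus WT of -0.75 in GF and 0.05 in SPF housing. In SPF housing Ccr7, Zbtb46 and Xcr1 were at least 2-fold higher, 3 of 15, and 0 lower, beside 5.61% and 6.61% of all genes. In GF housing 0 of 14 were higher and 3 lower, beside 8.8% and 7.77%. The summed signal of the list was 538.3 on KO GF, 868.4 on WT GF, 1178 on KO SPF and 1153 on WT SPF. For 11 macrophage and monocyte markers the median was -0.81 in GF and -0.30 in SPF housing, where Cd163 was at 1.21 and Cd14 at 1.18. Their summed signals were 210.4 on KO GF, 378.4 on WT GF, 409.4 on KO SPF and 428.9 on WT SPF. For the neutrophil and eosinophil list the median was -0.97 in GF and -1.03 in SPF housing. Limma called 1 of its 7 tested genes for genotype, beside 0.133% of 15029 genes, and no gene of the other marker lists. With normexp, quantile, cyclic loess, the 75th percentile over detected probes and the deposited table limma called 0 of all genes for genotype. The called gene was S100a9, a neutrophil protein. Its level was not well above background on KO GF, -1.90 on WT GF, -0.65 on KO SPF and 1.36 on WT SPF. Csf3r, the receptor for granulocyte colony-stimulating factor, was at 8.02 on KO GF, 7.59 on WT GF, 8.41 on KO SPF and 8.29 on WT SPF, the reverse direction. Prg2, an eosinophil granule protein, was at 0.84 (KO minus WT) in SPF housing and at least 1.32-fold higher on KO GF than on WT GF. The granule peroxidases Epx and Mpo were not well above background on WT SPF and were at least 1.97-fold and 1.60-fold higher on KO SPF. The summed signal of the list, which Csf3r leads, was 260.5 on KO GF, 195.8 on WT GF, 347.8 on KO SPF and 332.4 on WT SPF. Epithelial markers were higher on KO GF than on WT GF by a median of 0.65. The fibroblast and smooth muscle list had a median of 0.15 in GF and -0.71 in SPF housing, and the endothelial list -1.03 and -0.37. B cell and plasma cell markers were higher in KO SPF than in WT SPF cells, with a median of 1.84 and 5 of 8 at least 2-fold higher by measured value, beside 5.61% of all genes, but were at -0.17 in GF housing. Ms4a1, one of the 5, was not well above background on WT SPF and has a bound of at least 1.65-fold. Blk, a B cell kinase, was not well above background on any array. Ptpn6, Fcgr2b and Pirb are also expressed by B cells, neutrophils or macrophages, and the part of these cells in their differences was not tested.

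**Figure D4:**
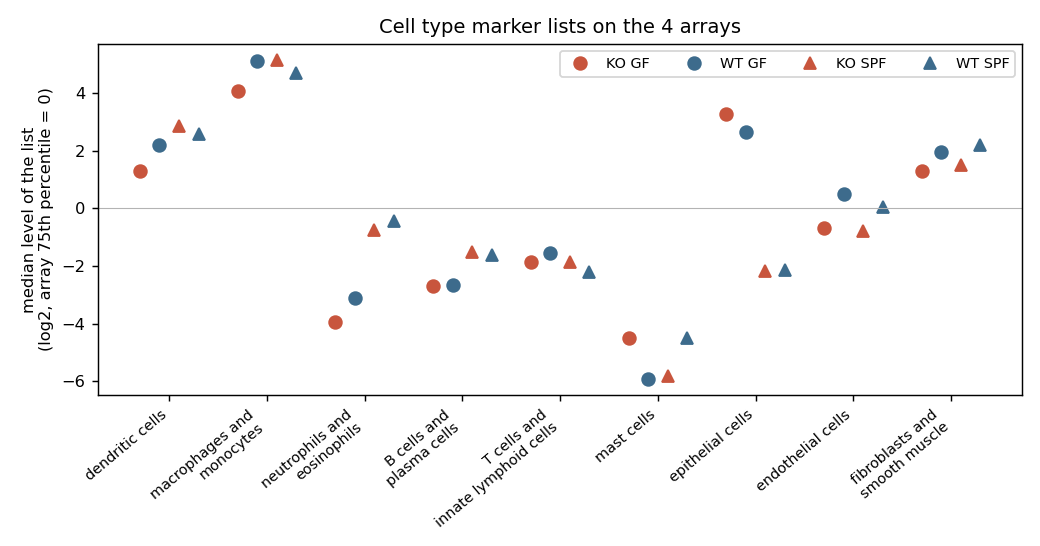
Median level (log2, relative to the 75th percentile of the array) of the measured genes of each cell type marker list on the KO GF, WT GF, KO SPF and WT SPF arrays, 1 point per array. Epithelial markers stand at 3.26 and 2.65 on the GF arrays and at -2.16 and -2.13 on the SPF arrays.

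Other ITIM receptors were measured for 19 of 21 listed genes. By measured value, between KO and WT cells 1 was at least 2-fold higher and 5 lower of 15 in GF housing (median -0.58), beside 8.8% and 7.77% of all genes. In SPF housing 1 was higher and 2 lower of 16 (median -0.10), beside 5.61% and 6.61%, and limma called 0 of the receptors for genotype. The higher receptors were below background on the WT array: Tigit was at least 1.35-fold higher on KO GF than on WT GF, and Clec12b at least 1.54-fold higher on KO SPF than on WT SPF. Siglecf, a sialic acid receptor known from eosinophils, was the 1 receptor at least 2-fold lower in both, with levels of -1.82 on KO GF, -0.78 on WT GF, 0.22 on KO SPF and 1.47 on WT SPF. Cd300lf, the paralog of Cd300a that also carries ITIMs, had differences KO minus WT of -0.65 in GF and -1.10 in SPF housing, and of -2.04 in WT and -1.59 in KO cells for GF minus SPF. The lowest receptor in the GF pair was Btla, a coinhibitory receptor of lymphocytes, at -1.47, which was at 0.42 in the SPF pair. Among receptors above background on both arrays of a pair, the highest in the GF pair was Fcrl5, an Fc receptor-like protein of B cells, at 0.79, and the highest in the SPF pair was Tigit, a coinhibitory receptor of T cells, at 0.85. The second probe of Fcrl5 was not above background on both arrays of the GF pair.

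In GF against SPF housing 12 of 16 of the other ITIM receptors were at least 2-fold lower by measured value in KO cells (median -1.50) and 6 of 15 in WT cells (median -0.82), with 0 higher in either, beside the 15.4% and 9.44% of all genes. The 12 include Clec12b, which was not well above background on KO GF and has a bound of 1.34-fold. With normexp the counts were 8 in KO and 3 in WT cells, beside 8.07% and 2.82% of all genes. Limma called 7 of 15 lower for housing, beside 5.2% of 15029 genes: Siglecf, Cd300lf, Cd72, Siglecg, Klrg1, Pilra and Tigit. That fit has 1 residual degree of freedom and measures no spread between samples of a group. Its 781 lower calls over all genes became 288 with the 75th percentile over detected probes and 289 with the deposited table. Cd72, a B cell coreceptor that recruits SHP-1, was lower, at -2.28 in WT and -1.95 in KO cells. Siglecg, a sialic acid receptor, was lower, at -1.73 in WT and -2.11 in KO cells, and Klrg1, a lectin receptor of killer and T cells, was at -1.25 and -1.37. Tigit was not well above background on WT GF and was lower there than on WT SPF, with a bound of 1.996-fold. Klrb1b, a lectin receptor of killer cells, was the lowest receptor in the KO pair, at -2.45, and Btla the highest in the WT pair, at 0.03. Cd22, a sialic acid receptor of B cells, was the highest in the KO pair, at 0.18.

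Adaptors, kinases and other phosphatases of the pathway were all measured, 25 of 25. Between genotypes 0 were 2-fold higher and 2 lower in GF housing (median -0.54), beside 8.8% and 7.77% of all genes. The brightest quartile of genes had a median of -0.45 in that pair. In SPF housing 1 was higher and 0 lower (median -0.05), beside 5.61% and 6.61%. Limma called 0 of the 25 for genotype. Fgr, a Src family kinase of myeloid cells, was lowest in GF housing, at -1.30, and was at -0.57 in SPF housing. Lyn, the Src family kinase that phosphorylates many ITIMs, was at -0.55 in GF and 0.15 in SPF housing. Pag1, a membrane adaptor that docks the kinase Csk, was at -0.21 in GF and 1.20 in SPF housing. Inppl1, which encodes the SHIP1 relative SHIP2, was at 0.37 in GF and -0.88 in SPF housing, and Cblb, a ubiquitin ligase, was highest in the GF pair at 0.43, though its second probe was at -0.87 there.

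By housing, 14 of these 25 genes were at least 2-fold lower in GF-raised KO cells (median -1.13), beside 15.4% of all genes and 20.9% of the brightest quartile, and 7 in WT cells (median -0.53), beside 9.44% and 5.47%. With normexp the 7 were 3, beside 2.82% of all genes. Limma called 6 of the 25 lower for housing, beside 5.2% of all genes, among them Ubash3b, Ptprc, Ptpn1, Fgr and Fyn. Ptpn1, the phosphatase PTP1B, was lower, at -1.56 in WT and -1.59 in KO cells, and Fyn, a Src family kinase, was at -1.40 and -2.33. Syk, the kinase that receptors with an activating motif (ITAM) use, was at -1.04 and -1.46, Ubash3b, a phosphatase-like regulator of Syk, at -1.06 and -1.94, and Fgr at -1.24 and -1.97. Cbl, a ubiquitin ligase, was the highest gene in both pairs, at 1.07 in WT and 0.87 in KO cells.

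Activating partners, the receptors and adaptors that signal through an ITAM or oppose the ITIM receptors, were measured for 15 of 17 genes. In SPF housing 1 was 2-fold higher and 0 lower in KO cells (median 0.01), beside 5.61% and 6.61% of all genes. In GF housing 0 were higher, beside 8.8% of all genes, and 6 lower (median -0.88). The brightest quartile of genes had a median of -0.45 in that pair. The 6 stand beside 7.77% of all genes and 8.36% of the brightest quartile. With cyclic loess they were 3, with a median of -0.46, beside 7.05% of all genes. Fcgr4, an activating Fc receptor for IgG, had levels of 3.51 on KO GF, 4.60 on WT GF, 5.61 on KO SPF and 6.56 on WT SPF. The KO minus WT difference was -1.09 in GF and -0.95 in SPF housing, beside Fcgr2b at -1.10 and -0.73. Fcer1g, the ITAM chain that Fcgr4 pairs with, was at -0.88 and -0.51, and Fcgr3, another activating Fc receptor, at -0.90 and -0.58. Tyrobp, the adaptor DAP12, was at -0.87 and -0.05. Cd300ld was lowest in the GF pair, at -2.60, and was at 0.26 in the SPF pair. Clec4e, the lectin receptor Mincle, ran in opposite directions, at -1.29 in GF and 1.73 in SPF housing, and its GF minus SPF difference was -2.56 in WT and -5.58 in KO cells. For Fcgr4 GF minus SPF was -1.96 in WT and -2.10 in KO cells. Limma called Fcgr4, Clec4n, Pilrb2, Cd300ld and Clec4e lower for housing, 5 of 15 beside 5.2% of all genes. Tyrobp was highest in the WT housing pair at 0.62. Trem1, a receptor that signals through Tyrobp, was highest in the GF genotype pair at 0.56. Siglech was highest in the KO housing pair at 0.26, where its second probe was at 1.46.

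Ligands of these receptors were measured for 13 of 13 genes, and they can come from the sorted cells or from RNA of others. B2m, the light chain of the MHC class I ligands of Pirb, was at -1.02 in GF and -0.05 in SPF housing (KO minus WT). H2-D1 and H2-K1, class I heavy chains, were at -0.97 and -0.79 in GF and at -0.25 and -0.08 in SPF housing. C1qb, a chain of complement C1q, which LAIR-1 also binds, was lowest in the GF pair at -1.10. The collagen genes Col1a1 and Col3a1, whose products are Lair1 ligands made by fibroblasts, were at 0.86 and 0.00 in GF and at -0.58 and -0.82 in SPF housing. Colec12, a collagen-like scavenger receptor, was higher in GF-raised WT cells by 3.24 and at least 10.9-fold higher in GF-raised KO cells. It was the 1 ligand of 12 that limma called for housing, beside 11.4% of all genes called higher. In the housing pairs the lowest ligands were Col1a2 in WT cells, at -0.37, and B2m in KO cells, at -1.29, and, among ligands above background on both arrays of the pair, the highest in KO cells was Col1a1, at 1.84. In the SPF genotype pair the 12 compared ligands had a median of -0.40, beside -0.06 over all genes. In the GF pair their median was -0.73, beside -0.20 over all genes and -0.45 over the brightest quartile. Col1a1, Col1a2 and Col3a1 are also in the fibroblast and smooth muscle list, whose SPF median was -0.71. In the SPF pair 0 ligands were at least 2-fold different, beside 5.61% of all genes higher and 6.61% lower.

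**Figure D5:**
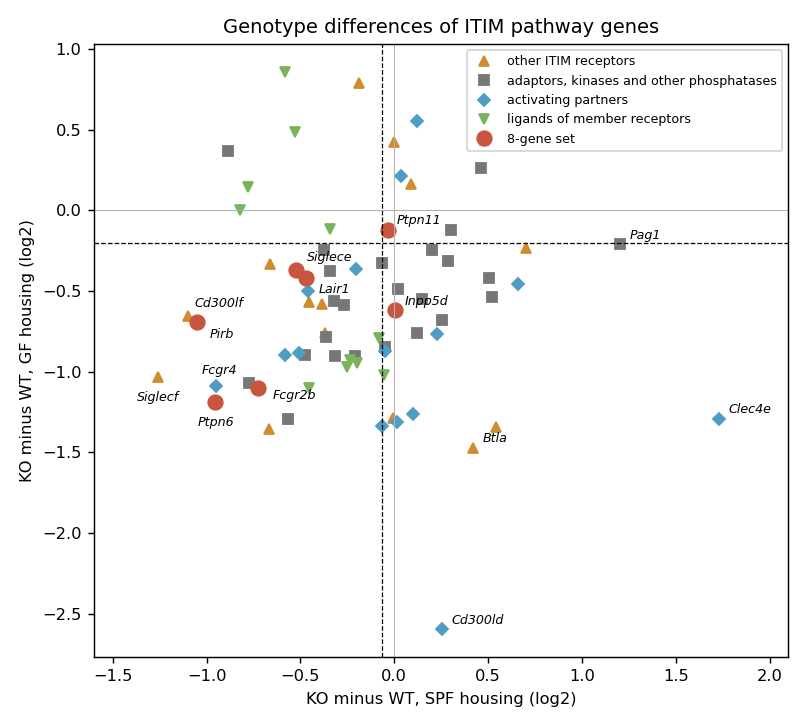
Difference KO minus WT (log2) of the 8-gene set and 4 lists of pathway genes, with SPF housing on the horizontal and GF housing on the vertical axis, for genes above background on all arrays; dashed lines are the medians of all genes, -0.06 and -0.20. Ptpn6, Fcgr2b, Fcgr4 and Siglecf lie together at the lower left, and Pirb lies beside Cd300lf.

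Some genes outside the pathway had the same profile over the 4 arrays as one of the 8. Likeness was the root mean square difference of the 4 levels, each centred on its mean, over 6070 genes above background on all arrays with a range of at least 1. Nearest to Ptpn6 were Ear2, an eosinophil-associated ribonuclease, at 0.018, Poli, a DNA polymerase, at 0.061, and Icos, a T cell costimulator, at 0.079. Nearest to Fcgr2b were Sgcb (0.036), Rinl (0.044) and Serpina3i (0.061), and nearest to Pirb were Commd7 (0.055), N4bp3 (0.062) and Pex10 (0.077). For Lair1 they included Card9 (0.040) and Twistnb (0.048), and for Inpp5d Dctn3 (0.021), Tubb2a-ps2 (0.025) and Orc4 (0.026). With 4 points per gene, many genes are near each profile: 54 lay within 0.2 of Ptpn6, 84 of Fcgr2b, 110 of Pirb, 210 of Lair1 and 312 of Inpp5d.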

How the data were processed

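Single-colour Agilent mouse arrays measured amplified, Cy3-labelled cDNA of sorted cells in 4 groups with 1 array each. The deposited scanner files hold a processed signal intensity per spot, background-subtracted by the scanner software (Feature Extraction 10.10.1.1, protocol GE1_1010_Sep10, design build mm9, per the file headers). A deposited table of the series holds intensity values equal to that signal times 7.96 (KO GF), 7.08 (WT GF), 8.24 (KO SPF) and 8.30 (WT SPF), linear and not centred by gene, with column medians of 331.4, 235.7, 216.3 and 237.2; the rule that set these factors is not known. It served as an alternative.

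From the deposited intensity, log2 values minus the 75th percentile of each array were computed here. Control spots (3671) and outlier spots were left out, spots of a probe were averaged, and 84 probes flagged on every spot of an array were dropped. Accessions were matched to RefSeq (GRCm38.p6), naming 27191 probes and leaving 28406 unnamed; of the genes, 5463 had several probes, and the brightest stood for the gene. A gene entered a pairwise comparison when 1 or both of its arrays were above background, and counts used measured values. A gene below background on 1 array is named with a bound. For the dimmer array the bound takes the measured level or the lowest level of a probe well above background there, whichever is higher. Some genes above that lowest level were not well above background, so each such bound is approximate and no strict limit. The call was a 2-fold difference, and 1 array per group limits the precision throughout. Limma 3.58.1 (R 4.3.3) took genes that 2 or more arrays detected above background, two-sided, with Benjamini-Hochberg adjustment at 0.05, and tested on simulated data. Alternatives were normexp with offset 50, quantile, cyclic loess, the 75th percentile over detected probes, the deposited table, a stricter filter, outlier spots kept, probe means, a trended robust prior and, added after seeing the data, differences relative to the median of all genes. Normexp used median spot signals, since the files hold no mean signal.

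The 8 genes, the pathway lists, the marker lists and the promoter words were chosen with earlier results of these data known. Named from each pathway list were the highest and lowest gene of each pair and genes 2-fold different in both genotype or both housing pairs; Cd300lf, Lyn, Fcer1g, Fcgr3, Tyrobp, H2-D1, H2-K1 and the marker genes were added for their roles or after their values were seen. A few items are not reported here.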

Additional observations from a re-analysis of the deposited data

Results flagged for a closer look

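Inpp5d, which encodes SHIP1, had genotype differences of opposite sign in the housings. KO minus WT was -0.62 in GF housing (0.22 on KO GF, 0.84 on WT GF) and 0.0054 in SPF housing (1.90 on KO SPF, 1.89 on WT SPF). With 1 array per group the difference between them was not tested, the SPF value lies near 0, and the median of all genes was -0.20 in GF and -0.06 in SPF housing. Over the alternatives the GF difference ranged from -0.62 to -0.33 and the SPF difference from -0.08 to 0.07.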

How the results depend on the processing

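With 1 array per group, no replicate could be left out. No paired analysis was possible because the labels give no replicate numbers; the limma fit takes housing as a term, and no array has a replicate to pair. No called value changed sign. The number of the 8 genes at least 2-fold lower depended on the scaling, and several lie near the threshold. The share of all genes at least 2-fold lower changed with the scaling as well. In KO SPF against WT SPF cells the number was 2, and 0 with normexp, beside 6.61% and 0.618% of all genes. It was 1 with genes above background on all arrays, beside 2.58%, and 1 relative to the median of all genes. It was 3 with quantile and with the deposited table, beside 5.71% and 7.67%. In KO GF against WT GF cells it was 2, beside 7.77% of all genes, and 0 relative to the median of all genes. It was also 0 with quantile (beside 8.72%), cyclic loess (7.05%), the 75th percentile over detected probes (4.47%) and the deposited table (3.64%). For housing it was 1 in place of 4 with normexp in WT cells, beside 2.82% in place of 9.44% of all genes. In KO cells it was 1 in place of 2 with quantile, cyclic loess and probe means. The shares there were 15.2%, 14.5% and 14.9% in place of 15.4%. Limma's 2 housing calls became 0 with quantile (adjusted p = 0.0573 for Inpp5d, 0.0692 for Lair1), cyclic loess (0.072, 0.0868), the 75th percentile over detected probes (0.0824, 0.074) and the deposited table (0.0902, 0.0876). The cause was not tested.

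Over all genes, limma's genotype calls were 10 higher and 10 lower, but 0 with normexp, quantile, cyclic loess, the 75th percentile over detected probes and the deposited table, with 721 to 943 genes at an unadjusted p under 0.05; they were 26 and 12 for genes above background on all arrays, and 52 and 24 with a trended robust prior. Housing calls were 1708 higher and 781 lower, against 844 and 457 with normexp. The lower calls were 422 with cyclic loess, 288 with the 75th percentile over detected probes, 289 with the deposited table and 1296 with the trended prior. All-gene calls in KO GF against WT GF cells were 1382 higher and 1220 lower, and 2291 and 571 with the deposited table, 2013 and 702 with the 75th percentile over detected probes. Signals near background limit Clec12a to approximate bounds.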
